A study of Canis lupus familiaris with 2 samples.

Results

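Levels of 3 miRNAs known from blood vessel endothelium, cfa-miR-126, cfa-miR-221 and cfa-miR-222, were compared between normal and dystrophic dog serum. They were chosen as the dog spots of the chip named with the number of one of these miRNAs, any letter or arm suffix ignored, which gave 3 of its 291 dog miRNAs, each with 1 spot. The dystrophic dogs (CXMD_J) have an X-linked muscular dystrophy caused by loss of dystrophin and serve as a model of Duchenne muscular dystrophy. Serum was taken from male dogs at 2 months of age, and the serum of 3 dogs was pooled for each group. Each pool gave 1 Cy5-labelled RNA sample on 1 3D-Gene array, so no error between dogs or arrays can be given, no test was made, and pool, array, slide and group cannot be told apart.

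Endothelial cells line the blood vessels, and miR-126 is the miRNA best known from them, where it supports signalling by vascular endothelial growth factor and holds down the adhesion molecule VCAM1. miR-221 and miR-222 are made from a shared cluster and are known to act on the receptor KIT in endothelial cells and on the cell cycle inhibitor p27. All of them are also found in platelets, and serum is collected after platelets have taken part in clotting.

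In the RefSeq gene table for the dog, the 3 members matched by name. MIR126 lies within the span of EGFL7, the gene of a protein that endothelial cells secrete, between AGPAT2 and the receptor gene NOTCH1. MIR221 and MIR222 follow each other with no listed gene between them, and both lie within the long noncoding RNA gene LOC111094885.

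A spot was called detected when its intensity passed the mean of the trimmed blank spots by more than 2 SD. On the normal array the blank mean was 118.0 and the limit 125.9, and on the dystrophic array they were 115.8 and 124.0. Net intensity is the spot minus the blank mean. Signal is the net intensity scaled so that the detected dog miRNAs of each array have a median of 25. By this rule 159 dog miRNAs were detected on the normal array and 188 on the dystrophic array. The limit did not keep out all spots without a target: 9.38% of the 1408 blank spots passed it on the normal array and 8.59% on the dystrophic array. Of the 181 spots that carry no probe, 26.5% and 23.8% passed it, and of the 32 negative control spots 65.6% and 84.4%, so detection near the limit does not set a spot apart from the controls.

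The spot of miR-126, the endothelial miRNA, had an intensity of 125.0 on the normal array and 118.5 on the dystrophic array. Both values lay under the limit, by 0.871 on the normal array and by 5.57 on the dystrophic array, so miR-126 was detected in neither pool. The same was true of 86 of the 291 dog miRNAs (29.6%), and miR-126 was 1 of the 3 members in that state. Its net intensity was 7.0 on the normal array and 2.67 on the dystrophic array, or 1.78 and 0.648 blank SDs. The spot was the dimmer one on the dystrophic array, but the difference of 4.33 was smaller than the SD of the difference of a pair of blank spots, which was 10.2 from all blank spots and 5.70 from the trimmed blank spots that set the limit. No fold is given, since neither value was above the limit. Blank spots at least as bright as miR-126 numbered 159 on the normal array (11.3%) and 387 on the dystrophic array (27.5%). Of the 32 negative control spots, 21 and 31 were at least as bright. The label of an endothelial miRNA therefore rests on what is known of miR-126, and by this rule no level of it was measured above background in either serum pool. The name of the spot gives no arm, and which arm of miR-126 its probe reads was not checked.

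The blank level near miR-126 was lower than over the whole array. In its block the 44 blank spots had a median of 115.4 on the normal array and 114.7 on the dystrophic array. With the blank level of the block subtracted, miR-126 passed the limit on the normal array with a signal of 10.3 and stayed under it on the dystrophic array at 3.37. The call on the normal array thus turned with the blank level used. The brightest of the 5 spots beside miR-126, a quality control spot, was at 557 on the normal array and 1480 on the dystrophic array. The spot of miR-126 was the dimmer one where this neighbour was the brighter one. Another quality control spot beside miR-126 was also dimmer on the dystrophic array, at 122.6 against 124.3, and the rest were not.

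miR-221 was the member with a clear signal in both pools. Its spot had an intensity of 239.6 on the normal array and 200.8 on the dystrophic array, which is 30.9 and 20.6 blank SDs above the blank mean. No blank spot on the normal array and 1 on the dystrophic array was at least as bright, and no spot without a probe and no negative control was. Scaled, the signal was 126 ± 10.1 in normal serum and 70.2 ± 7.0 in dystrophic serum, where the error is an SD propagated from the blank spots and from replicate spots of control probes. The dystrophic signal was the lower one.

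The ratio of dystrophic to normal signal for miR-221 was 0.555, a log2 ratio of -0.85 with a propagated SD of 0.18. Its 95% interval ran from 0.433 to 0.713 and left out 1, so the difference was larger than the spread between spots. The interval covers spot noise only, and not the spread between dogs, RNA preparations or arrays. Normal serum was 1.80-fold higher, which is short of the 2-fold limit used for calls, and the interval reached across that limit. Of the 142 dog miRNAs detected on both arrays, 19 (13.4%) had a ratio above 2 and 8 (5.63%) a ratio of 0.5 or less. miR-221, the only member with a ratio, was in neither group.

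A ratio under 1 was common, with 59 of the 142 miRNAs (41.5%) on that side. The ratio of miR-221 was among the lower ones: 14 of the 142 miRNAs, itself included, had a ratio as low or lower. Among the 71 miRNAs whose signals in both pools reached 25, the number was 7. The median ratio of the 142 miRNAs was 1.09, or 0.13 on the log2 scale, and other scalings moved this median by -0.39 to 0.39. Relative to the median, the ratio of miR-221 was 0.508 with a 95% interval from 0.396 to 0.653. This relative ratio was 0.787 without background subtraction and 0.706 with normexp background correction, both outside the interval. In the other alternatives that gave one it ran from 0.503 to 0.557, and scaling by a single factor leaves it unchanged by construction. In serum, which gathers RNA from many tissues, fewer source cells and less RNA per cell cannot be told apart as the basis of such a difference.

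Around miR-221 on the chip, the 44 blank spots of its block had a median of 119.2 on the normal array and 119.6 on the dystrophic array, and none was as bright as miR-221. With these block levels the ratio was 0.552. Among the 5 spots beside miR-221 was that of the muscle miRNA miR-133c, at 131.2 on the normal array and 2652 on the dystrophic array. The miR-221 spot was the dimmer one on the array where this neighbour was the brighter one. Of the other spots beside it, all for quality control, some were also dimmer on the dystrophic array (152.1 to 145.2 and 123.7 to 120.6). The rest were brighter there (152.6 to 159.1 and 130.0 to 135.7). The local background recorded around the miR-221 spot was 227.6 on the normal array and 176.0 on the dystrophic array, close to the spot itself. Local background was high around many bright spots: it passed the highest value around any blank spot for 26 dog miRNAs on the normal array and 42 on the dystrophic array. It equalled or passed the spot itself for 8 and 6 dog miRNAs. Whether this column holds light of the spot was not tested, and the value after its subtraction is limited by that. With local background subtracted, miR-221 was at 12 on the normal array and 24.7 on the dystrophic array, so the order of the arrays was reversed. Both values lay under the blank means of 40.8 and 34.6 computed the same way, so miR-221 was detected on neither array and had no ratio, and 21 dog miRNAs in all had one.

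**Figure D1:**
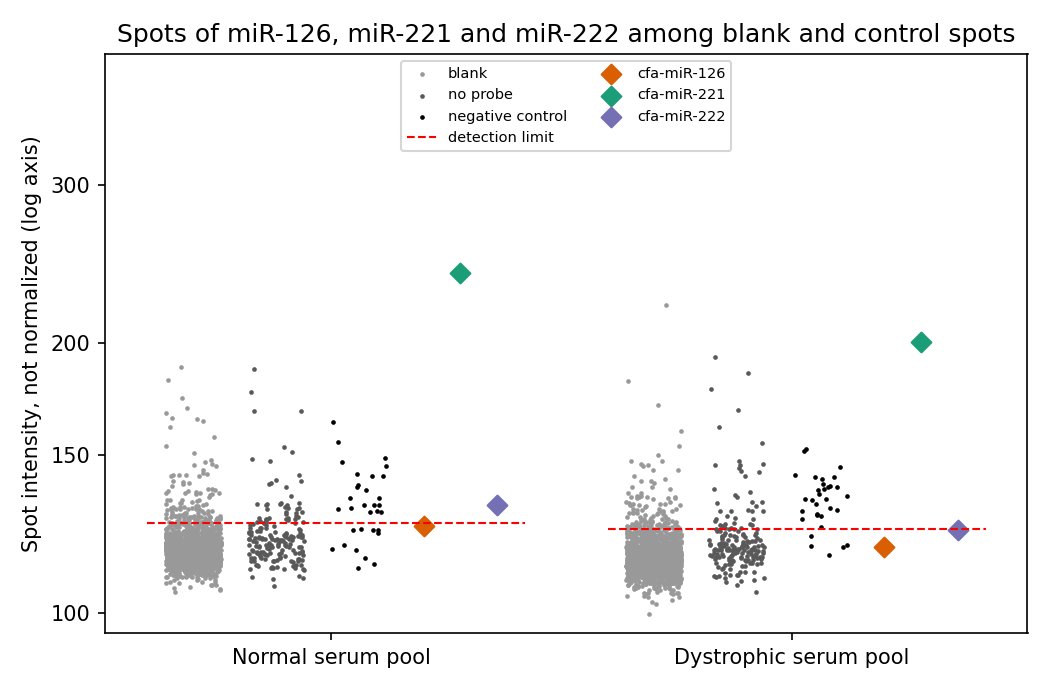
Spot intensity before normalization (log axis) on the normal and the dystrophic array, with 1 point for each blank spot, spot without a probe and negative control spot, and a diamond for each of the 3 miRNAs. Dashed lines mark the detection limits of 125.9 and 124.0. miR-221 lies far above the limit on both arrays, at 239.6 and 200.8, while miR-126 and miR-222 lie among the control spots.

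miR-222, the cluster partner of miR-221, had a spot intensity of 132.1 on the normal array and 123.8 on the dystrophic array. It was above the limit by 6.19 in normal serum and under it by 0.211 in dystrophic serum. Detection on the normal array alone was found for 17 of the 291 dog miRNAs (5.84%), and miR-222 was 1 of the 3 members in that state. The normal array spots of these 17 miRNAs lay between 126.0 and 134.95, with a median of 130.4, so all of them were close to the limit. For miR-34a, 1 of the 17, the dystrophic spot was marked unusable at an intensity of 203.5 and was not dim. The signal of miR-222 was 14.6 ± 7.59 in normal serum and, under the limit, 6.64 ± 5.96 in dystrophic serum.

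Set against 6.87, the lowest detected signal of the dystrophic array, the normal signal of miR-222 gave a lower bound of 2.13-fold by the point values. With the blank level of the block, normal over dystrophic was 1.59, under this bound, so no direction is drawn from the bound. The bound was 1.09 without background subtraction, 1.16 with normexp background correction and 1.52 with detection at 3 SD, and it takes no account of spot noise. The net intensities were 14.1 and 8.02, and their difference of 6.04 was smaller than the SD of 10.2 for a pair of blank spots and slightly larger than the 5.70 from the trimmed blank spots. miR-222 therefore had the dimmer spot in dystrophic serum by about the noise of the blank spots. Blank spots at least as bright numbered 54 on the normal array (3.84%) and 128 on the dystrophic array (9.09%). Of the spots without a probe, 20 (11%) and 45 (24.9%) were at least as bright. Negative controls at least as bright numbered 13 of 32 where miR-222 was called detected, in normal serum, and 27 of 32 in dystrophic serum.

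The blank spots near miR-222 were dim on the dystrophic array, with a median of 112.2 over the 44 blank spots of its block, against 116.9 on the normal array. With these levels subtracted, miR-222 was detected on both arrays, with signals of 16.4 in normal and 10.3 in dystrophic serum and a ratio of 0.630. Its detection in normal serum alone thus did not hold with the level of the block. It was also lost with untrimmed blank spots, with a limit at the 99th percentile of blank spots or the 95th percentile of spots without a probe, and with local background subtracted, each of which left miR-222 detected on neither array. With local background subtracted its values were 35.9 on the normal array and 37.3 on the dystrophic array, the reverse order. The blank spots of this block were uneven on the normal array, where their SD was 13.8 and the brightest reached 182.1.

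All 3 members had the dimmer spot on the dystrophic array, as did 93 of the 291 dog miRNAs (32.0%) and 878 of the 1408 blank spots (62.4%). The share was 60.8% for spots without a probe and 50% for negative control spots. With the blank means subtracted, the net intensity was lower on the dystrophic array for the 3 members, for 71 dog miRNAs (24.4%) and for 685 blank spots (48.7%). For spots without a probe and negative control spots these shares were 47.0% and 31.25%. For miR-126 the difference was within the noise of the blank spots by either SD, and for miR-222 by the SD of all blank spots but not by that of the trimmed ones, so no direction is drawn for them. For miR-221 the difference was larger than the noise by both. Since miR-221 and miR-222 come from 1 cluster, and each miRNA has 1 spot on each array, the members are not replicates of one another. Brightness also depends on the probe, so the signals of the 3 members give no order of their amounts in serum.

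The miRNAs with the most similar values on the 2 arrays were found by distance. For miR-221, among the 141 other miRNAs detected on both arrays, the nearest was miR-25, at a distance of 0.253 on the log2 scale, with signals of 107 and 74.7 and a ratio of 0.696. It was followed by miR-150, best known from lymphocytes, with a distance of 0.535 and a ratio of 0.743, and by miR-16, with a distance of 0.547 and a ratio of 0.346. These ratios and that of miR-221 were under 1 in all 16 alternative processings that gave them. For miR-222, with net intensities in blank SDs, the nearest of 289 miRNAs were miR-107 at 0.135, let-7g at 0.482 and miR-487a at 0.50, all detected on the normal array alone. For miR-126 they were miR-19a at 0.121 and miR-338 at 0.471, detected on neither array, and miR-491 at 0.334, detected on the normal array alone. Over 2 arrays, such nearness describes brightness only.

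**Figure D2:**
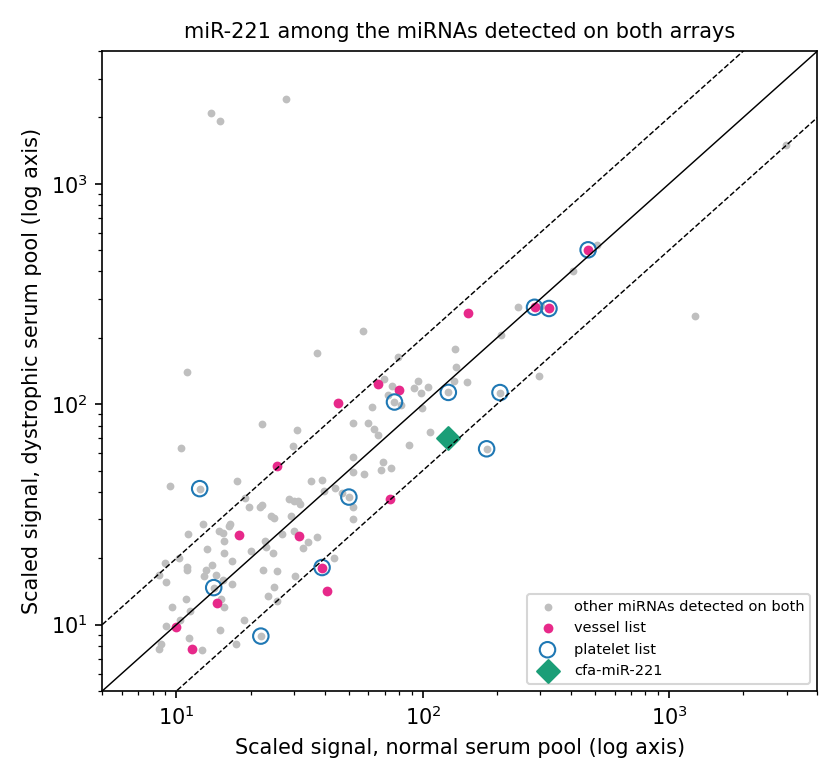
Scaled signal in normal serum (horizontal log axis) and dystrophic serum (vertical log axis), with 1 point for each of the 142 dog miRNAs detected on both arrays. The solid line marks equal signal and the dashed lines ratios of 2 and 0.5. miR-221 (diamond, 126 and 70.2) lies between the solid and the lower dashed line, and miRNAs of the vessel list (filled) and of the platelet list (rings) lie on both sides of the solid line.

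Other miRNAs studied in blood vessels were taken as a list of 26, of which 24 are known from endothelial cells and miR-143 and miR-145 from vessel wall smooth muscle. On both arrays 16 of them were detected, 3 on the normal array alone (miR-34a, with its unusable dystrophic spot, among them), 4 on the dystrophic array alone and 3 on neither. Of the 16, 2 had a ratio above 2 (miR-10b at 2.06 and miR-27b at 2.23) and 2 a ratio of 0.5 or less (miR-20a at 0.348 and let-7b at 0.465), beside 13.4% and 5.63% of all 142 miRNAs. Of the alternative processings that gave a ratio, miR-10b was above 2 in 9 of 15 and miR-27b in 12 of 16, while miR-20a was at 0.5 or less in 11 of 13 and let-7b in 6 of 13. The median ratio of the 16 was 0.972, beside 1.09 for all 142 miRNAs, and it ranged from 0.725 to 1.41 over the alternative processings, being under 1 in 7 of 17. An alternative can change which miRNAs of a list have a ratio, and for the vessel list these medians were over 4 to 16 miRNAs. So no direction can be given for the vessel list, whose ratios lay under 1 for 9 miRNAs and over 1 for 7.

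Within the vessel list, 3 miRNAs had a ratio as low as that of miR-221, namely miR-20a, let-7b and miR-145. miR-145, the smooth muscle miRNA, gave a signal of 73.6 for the normal and 37.2 for the dystrophic pool. Its ratio was 0.506, with a 95% interval from 0.339 to 0.754. miR-143 was detected on neither array. On the other side, miR-23b, known for its part in vessel growth, gave 153 for the normal and 259 for the dystrophic pool, with a ratio of 1.69 (95% interval 1.41 to 2.03). miR-503 gave 65.9 and 123, with a ratio of 1.87 (1.41 to 2.49). The ratios of miR-145 were under 1, and those of miR-23b and miR-503 over 1, in every alternative processing that gave one. miR-221 thus differed in direction from some endothelial miRNAs of the list and not from others. Summed signals here and for the lists that follow add the miRNAs detected on each array, so the miRNAs summed can differ between the arrays. Of the 24 endothelial miRNAs, the 15 detected on both arrays had a median ratio of 0.976. It was under 1 in 6 of 17 alternatives and ranged from 0.779 to 1.65, over 4 to 15 miRNAs. The endothelial miRNAs had a summed signal of 1644 in normal and 1857 in dystrophic serum.

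Platelets are known to carry all 3 members, so platelet miRNAs were examined beside them. Of 13 listed platelet miRNAs, 12 were detected on both arrays and miR-28 on the normal array alone. Their summed signal was 1818 in normal and 1560 in dystrophic serum, and miR-24 was the brightest in both pools. Of the 12, 8 had a ratio under 1, 3 of these at 0.5 or less (miR-16, let-7b and miR-21), and miR-103 had a ratio of 3.33. The 95% intervals of miR-21 (0.0914 to 1.78) and miR-103 (0.970 to 11.4) held 1. The shares of all 142 miRNAs were 41.5% under 1, 5.63% at 0.5 or less and 13.4% above 2. The median of 0.863 was under 1 in 11 of 17 alternatives and ranged from 0.586 to 1.46, over 4 to 12 miRNAs. The defining miRNA of platelets and myeloid cells, miR-223, had a signal of 206 in normal and 113 in dystrophic serum. Its ratio of 0.549 (95% interval 0.453 to 0.665) was close to the 0.555 of miR-221 and was under 1 in all 16 alternatives that gave one. The part of platelet RNA in the lower miR-221 signal was not tested. Of the platelet list, 4 miRNAs are also in the endothelial list and 2 in the red cell list.

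Red cell miRNAs were examined in the same way. Of 8 listed, 7 were on the chip (miR-486 was not), and 5 were detected on both arrays, each with a ratio under 1, beside 41.5% of all 142 miRNAs. miR-92a, 1 of the 5 with a ratio of 0.835, was under 1 in 11 of 17 alternatives, and the other 4 in all 16 that gave a ratio. miR-185 went the other way and was detected on the dystrophic array alone. The median of the 5, 0.688, was under 1 in 17 of 17 alternatives, over 1 to 5 miRNAs. The defining miRNA miR-451 was the brightest of them in normal serum, with a signal of 1276, against 250.0 for the dystrophic pool. Its ratio was 0.196 (95% interval 0.168 to 0.229). The other defining miRNA, miR-144, was detected on neither array, with spots of 118.9 and 121.9. Summed, the red cell miRNAs had a signal of 1964 in normal and 722 in dystrophic serum, where miR-92a was the brightest. Their part in the miR-221 result was not tested.

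Of the 7 leukocyte miRNAs, 4 were detected on both arrays, with a median ratio of 0.765 that was under 1 in 15 of 16 alternatives, over 2 to 4 miRNAs, and 3 on neither. The 4 did not share a direction. For miR-142 the ratio was 2.24 (95% interval 0.652 to 7.71), over 1 in all 12 alternatives that gave one. The other 3 had ratios under 1, beside 41.5% of all 142 miRNAs. For miR-181a the 95% interval (0.306 to 2.02) held 1, and its ratio was under 1 in 11 of 13 alternatives. The ratios of miR-223 and miR-150 were under 1 in all 16 alternatives that gave them. The leukocyte miRNAs had a summed signal of 329 in normal and 225 in dystrophic serum, and miR-223 was the brightest. Of the 3 liver miRNAs, 2 were detected on both arrays, with summed signals of 38.7 and 34.8, miR-192 as the brightest and a median ratio of 0.916, which was under 1 in 11 of 16 alternatives, over 1 or 2 miRNAs. The defining liver miRNA, miR-122, was near the limit in both pools at 8.63 and 8.14. Of the 8 muscle miRNAs, 4 were detected on both arrays, all with a ratio above 2, beside 13.4% of all 142 miRNAs. The summed signal of the muscle list was 79.96 in normal and 6616 in dystrophic serum, with miR-133b as the brightest. In dystrophic serum miR-133a, miR-133b and miR-133c had signals of 1934, 2426 and 2097. Whether the spots of these miR-133 miRNAs read separate RNAs was not tested. The median ratio of these 4 (miR-133a, miR-133b, miR-133c and miR-206) was 108, and over the alternatives the median of the list ranged from 18.8 without background subtraction to 141, over 1 to 5 miRNAs. Their normal signals were low, from 11.05 to 27.8, so the ratios are imprecise, with a 95% interval from 51.4 to 451 for miR-133c. Each of them was above 2 in every alternative that gave it a ratio, 11 for miR-206, 12 for miR-133a and miR-133c and 15 for miR-133b, so these 4 and miR-221 lay on opposite sides of 1. Of the other muscle miRNAs, miR-1 was detected on the dystrophic array alone, miR-499 on the normal array alone, and miR-208a and miR-208b on neither. With the blank level of the block miR-499 had a ratio of 0.868, on the same side as miR-221. The part of any of these sources in the values of the 3 members was not tested.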

How the data were processed

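Total RNA from each serum pool was labelled with Cy5 and hybridized by the authors to a 3D-Gene miRNA chip for several animals, with 291 dog miRNAs. The deposited scanner files hold the median intensity of each spot on a linear scale, combined from scans at several gains and without background subtraction, and the intensity of the local background. The deposited value table holds intensity values that the authors background-subtracted and globally normalized, with a median of 25.0 on each array. Its scale was found by comparison with the scanner values: detection was the same for 291 of 291 dog miRNAs on both arrays, and the largest difference was 0.0498. The number of trimmed spots was rounded up because this gave the deposited values, so their match is partly by construction. Its values are linear and not centred, and each array has its own column.

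Signals were computed from the scanner files. Blank spots were trimmed by 5% at each end, and their mean was subtracted. Spots above the mean plus 2 SD of the trimmed blank spots and not marked unusable were detected (1 dog miRNA spot was unusable, on the dystrophic array, namely miR-34a). Limits were a ratio above 2 and of 0.5 or less. Errors combined the SD of all blank spots with the median CV of 5.26% of 10 bright control probes with 8 spots each. The tools were Python 3.11.15, numpy 2.4.6, pandas 2.3.3, matplotlib 3.10.9, R 4.3.3 and limma 3.58.1, the last for normexp with an offset of 50. The steps were tested on simulated data, with planted changes larger than that of miR-221 and noise set by the trimmed blank spots. That test does not bear on a ratio such as that of miR-221. Nor does it bear on spots near the limit in the wider noise of all blank spots.

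Named miRNAs are the 3 members, the 3 nearest to each by Euclidean distance, and members of the lists: blood vessels (endothelial cells, smooth muscle), platelets, red cells, leukocytes, muscle and liver. Members and lists were chosen with earlier results of these data known. In all, 16 alternatives were run as planned and 1, scaling to bright control probes without S-Probe6 (whose net intensity was 2.22-fold higher on the dystrophic array), was chosen after seeing the data. Gene names come from RefSeq for the assembly UU_Cfam_GSD_1.0, and its positions served only to find which genes span or neighbour the members. The planned comparison of member sequences was not made.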

Additional observations from a re-analysis of the deposited data

How the results depend on the processing

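The ratio of miR-221 was under 1 in all 16 alternatives that gave one, from 0.456 to 0.815, and 12 of them lay inside its 95% interval. Outside were no background subtraction (0.815), normexp (0.743), detection at the 99th percentile of blank spots (0.730) and, chosen after seeing the data, bright control probes without S-Probe6 (0.729). It was at 0.5 or less with the median over miRNAs detected on both arrays (0.456), quantile normalization (0.466) and the 95th percentile of spots without a probe (0.499), so its side of the 2-fold limit depended on the scaling and the limit. With local background subtracted, miR-221 was detected on 0 arrays, and its undetected values ran the other way (12 normal, 24.7 dystrophic). The 12 alternatives inside the interval of miR-221 include some that could not move its ratio. Setting values to the limit and requiring a signal of at least 25 left it unchanged by construction. The deposited values (0.555) match the main signals partly by construction. miR-222 was detected on 0 arrays with untrimmed blank spots, local background, or a limit at the 99th percentile of blank spots or the 95th percentile of spots without a probe, and on 2 with the blank level of the block. Its undetected values with local background also ran the other way (35.9 normal, 37.3 dystrophic). Elsewhere normal over dystrophic for miR-222, a lower bound except with the block level (1.59), ran from 1.09 without background subtraction to 2.97 with quantile normalization. miR-126 was detected on 1 array with the blank level of the block and on 0 in the others.

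Of all dog miRNAs, 142 had a ratio, but 21 with local background, 67 at the 99th percentile of blank spots, 72 at the 95th percentile of spots without a probe and 71 with a signal of at least 25. The numbers above 2 and at 0.5 or less were 19 and 8. They were 6 and 1 without background subtraction and with normexp, 22 and 3 with untrimmed blank spots, and 4 and 1 with local background. Other scalings gave 34 and 3 (none), 12 and 19 (miRNAs detected on both arrays), 10 and 22 (quantile), 31 and 4 (bright control probes) and 40 and 3 (without S-Probe6). Other detection rules gave 12 and 9 at 3 SD, 11 and 2 at the 99th percentile, 5 and 7 at the 95th percentile, 29 and 16 with values set to the limit, and 8 and 3 with a signal of at least 25. The share above 2 among these calls was 70.4%, against 91.9% without scaling, 38.7% with miRNAs detected on both arrays, 31.25% with quantile normalization, 88.6% with bright control probes and 93.0% without S-Probe6. Except for quantile normalization, these scalings multiply all ratios by the same factor, so their shares move with that factor by construction. The cause of the other shifts in these numbers was not tested.

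No paired analysis was possible because each group has 1 array, and leaving out an array was not possible. Other scanner gains were not run, since the files used here hold 1 intensity for each spot. Signal over background limits miR-126 and miR-222: both lay under the limit on the dystrophic array.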
